A study of Mus musculus with 4 samples.

Results

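The macrophage genes of sympathetic ganglia are described here in mice kept in the cold. The set holds 10 genes chosen by name, *Cd68*, *Adgre1*, *Csf1r*, *Aif1*, *C1qa*, *C1qb*, *C1qc*, *Mrc1*, *Cx3cr1* and *Msr1*, which were matched by symbol to the Entrez identifiers of the deposited tables. All 10 were listed in all 4 libraries, among 17667 genes listed in at least 1 library and 15275 listed in all 4. RNA-seq was carried out on the ganglia of thoracic levels T1 to T4, which send sympathetic fibers to brown fat. Every library was a pool from 6 C57BL/6 mice aged 12 weeks that had spent 1 day at 5 °C, so no library is free of cold exposure. There were 2 wild-type libraries, named WT_1 and WT_2, and 1 library each labelled TRKC+/- and AdNTF3-Tg. TRKC+/- mice carry 1 intact copy of *Ntrk3*, the gene of the neurotrophin-3 receptor TRKC, in all cells. AdNTF3-Tg mice express neurotrophin-3 from a transgene under an adiponectin promoter, so the transgene is meant to act in adipocytes and not in the ganglion. The comparisons ask how ganglia differ when neurotrophin-3 signaling is lowered or its supply from fat is raised.

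Macrophages are phagocytes that reside in most tissues, and in peripheral ganglia they lie among neuron cell bodies, satellite glia and vessels. Signals through the colony-stimulating factor 1 receptor, encoded by *Csf1r*, keep them alive, while pattern-recognition and scavenger receptors let them take up debris, lipoproteins and dying cells. Tissue macrophages are also the main source of C1q, the recognition molecule of the classical complement pathway, which is built from the products of *C1qa*, *C1qb* and *C1qc*. In a whole ganglion, fewer macrophages and less RNA of a gene per macrophage cannot be told apart.

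The C1q genes stood at the top of the set and are neighbors in the genome. In the NCBIM37 (mm9) annotation they lie on the minus strand of chromosome 4 in the order *C1qb*, *C1qc* and *C1qa* by coordinate, between positions 136436044 and 136454718, a stretch of 18675 bases with gaps of 3616 and 2851 bases. Promoter windows of 300 bases, from 250 bases before to 50 bases after the gene start, were taken from RefSeq, where 6 of the 10 genes had an entry, and located by exact match in NCBIM37. The windows of *C1qb* (chr4:136442066-136442365) and *C1qc* (chr4:136448780-136449079) are shown because they are the C1q genes with an entry. Each is printed 5′ to 3′ on the gene's own strand, with GAGGAA or its reverse complement TTCCTC in capitals. GAGGAA is a core of the sites bound by PU.1, a transcription factor of myeloid cells.
C1qb: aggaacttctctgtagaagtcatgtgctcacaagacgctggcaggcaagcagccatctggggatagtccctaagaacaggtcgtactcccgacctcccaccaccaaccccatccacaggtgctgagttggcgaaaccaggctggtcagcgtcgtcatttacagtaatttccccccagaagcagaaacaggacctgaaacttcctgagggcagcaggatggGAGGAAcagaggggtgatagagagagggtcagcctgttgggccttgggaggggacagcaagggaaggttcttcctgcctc
C1qc: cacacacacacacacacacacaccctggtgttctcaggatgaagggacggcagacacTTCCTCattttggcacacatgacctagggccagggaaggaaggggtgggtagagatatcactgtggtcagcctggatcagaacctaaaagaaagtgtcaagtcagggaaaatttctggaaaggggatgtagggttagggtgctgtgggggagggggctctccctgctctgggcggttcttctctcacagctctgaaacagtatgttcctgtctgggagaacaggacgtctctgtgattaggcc
Counted from the RefSeq start, the match begins 30 bases before it in *C1qb* and 193 bases before it in *C1qc*. The RefSeq start of *C1qc* (136448829) lies 151 bases downstream of the start in the NCBIM37 annotation (136448980), so the match is nearer to the latter. Of the 6 genes with a window, 5 held the letters on either strand and *Cx3cr1* did not, and 28.3% of 32851 RefSeq promoter windows of that length held them. A match of these letters does not show a bound site.

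The libraries had between 8665955 and 8894985 reads on genes, and 3 reads, the limit that a count of 0 allows, correspond to between 0.337 and 0.346 CPM, reads scaled to the library total. The targeted gene did not separate the libraries: *Ntrk3* was at 2.45 FPKM (78 reads) in WT_1, 2.52 (83 reads) in WT_2, 2.72 (91 reads) in the library labelled TRKC+/- and 2.32 (76 reads) in AdNTF3-Tg. Against the WT mean, the log2 fold change for TRKC+/- was 0.13 with a counting interval from −0.23 to 0.53, so the genotype label is not borne out by this gene, and a value over the whole gene may include transcripts of the altered copy. *Ntf3* had 2 reads in the library labelled TRKC+/- and no listed reads in any other library, which does not check the AdNTF3-Tg label because the transgene belongs to fat. The tissue label held, since *Th*, the rate-limiting enzyme of noradrenaline synthesis, was between 2576 and 2753 FPKM in every library. Markers of tissue around the ganglion differed between libraries, also within WT. A list of 9 skeletal muscle genes summed to 102 FPKM in WT_1, 3.37 in WT_2, 47.2 in the library labelled TRKC+/- and 35.7 in AdNTF3-Tg. A list of 8 adipocyte genes summed to 159, 136, 94.8 and 119 FPKM in the same order, and without *Ucp1*, a sum added after seeing the data, to 112, 87.4, 87.0 and 81.4 FPKM, where the library labelled TRKC+/- was level with WT_2.

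The paper describes a WT control of its own for each mutant. The labels only number the WT libraries and do not say which was raised with which mutant, so both served both mutants. Each mutant library was set against the mean of both and against each alone. The difference between WT_1 and WT_2 may therefore hold more than spread between replicate pools. All differences are log2 fold changes of FPKM, a unit that scales reads by transcript length and library total, after adding 0.1. A difference of at least 0.5 counted as past the cutoff. With 1 mutant library there is no replicate check of these folds, and an exact permutation test of 1 library against 2 cannot give a two-sided p below 0.667. Intervals are 95% Clopper-Pearson intervals of the ratio of reads per library total, and they cover counting error only.

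The 10 genes spanned a wide range of levels. By mean FPKM over the 4 libraries the order was *C1qb* (44.0), *C1qa* (43.4), *C1qc* (36.0), *Csf1r* (11.8), *Cd68* (11.03), *Mrc1* (6.13), *Aif1* (4.86), *Adgre1* (3.93), *Cx3cr1* (3.19) and *Msr1* (1.93). Neighbors in this order had overlapping ranges over the libraries, except that *C1qc* was above *Csf1r* and *Cd68* above *Mrc1* in all of them. *C1qb* was on average at percentile 86.9 of the listed genes and *Msr1* at percentile 23.5. Summed over the set, the level was 193 FPKM in WT_1, 161 in WT_2, 169 in the library labelled TRKC+/- and 141 in AdNTF3-Tg. The library labelled TRKC+/- thus lay between the WT libraries and AdNTF3-Tg below both, while the WT libraries themselves were 0.26 apart on the log2 scale.

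**Figure D1:**
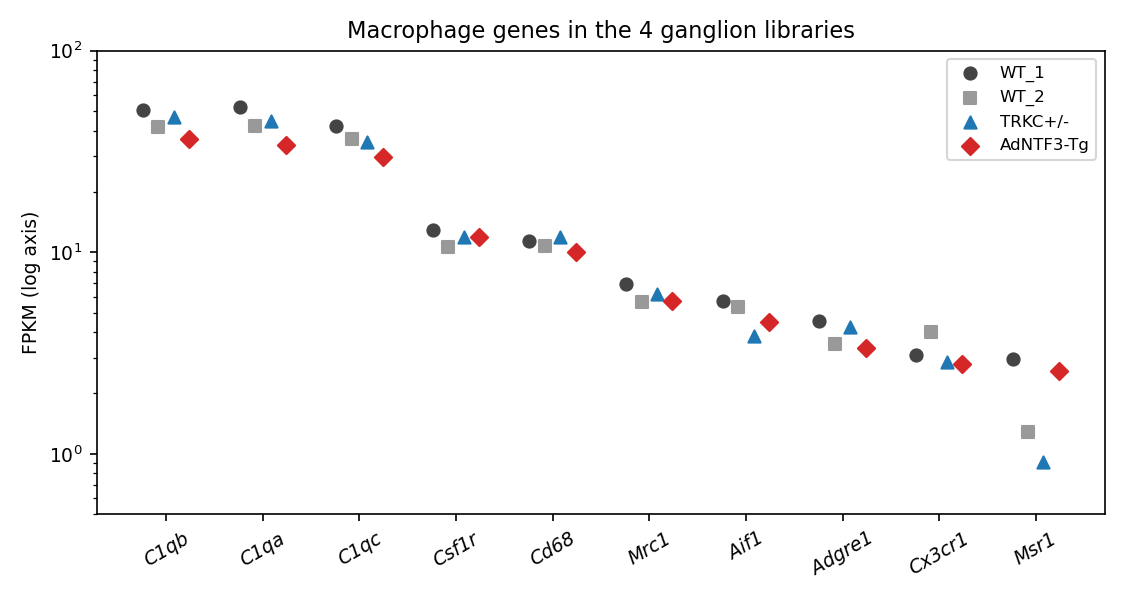
FPKM (log axis) of the 10 macrophage genes, ordered by mean, with 1 point for each of the 4 libraries. *C1qa*, *C1qb* and *C1qc* lie between 29.8 and 52.4 FPKM and are lowest in AdNTF3-Tg, and *Msr1* has the widest spread, from 0.91 to 2.97 FPKM.

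*Csf1r*, the receptor on which macrophage survival depends, was at 12.97 FPKM (431 reads) in WT_1, 10.7 (360 reads) in WT_2, 11.9 (403 reads) in the library labelled TRKC+/- and 11.9 (400 reads) in AdNTF3-Tg. Both mutant libraries lay between the WT libraries. The log2 fold change against the WT mean was 0.00 (−0.17 to 0.18) for the library labelled TRKC+/- and 0.01 (−0.17 to 0.18) for AdNTF3-Tg, with the same counting interval for both to this precision. *Csf1r* lies on chromosome 18 from 61265226 to 61291803 in NCBIM37. The ligands of this receptor were present: *Csf1* was between 8.69 and 10.7 FPKM and *Il34* between 9.07 and 11 FPKM over the 4 libraries. Of 7 ligands of macrophage receptors on the list, 6 were listed in every library and none passed the cutoff against both WT libraries in either mutant. By that measure 2.49% of all genes were lower and 1.78% higher in the library labelled TRKC+/-, and 3.58% and 2.12% in AdNTF3-Tg.

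*Cd68*, a lysosomal glycoprotein of phagocytes (chromosome 11, 69477715 to 69479655), was at 11.4 FPKM in WT_1, 10.7 in WT_2, 12.0 in the library labelled TRKC+/- and 10.03 in AdNTF3-Tg. The reads behind these values were 95, 89, 101 and 83. The log2 fold changes were 0.11 (−0.25 to 0.47) and −0.14 (−0.55 to 0.22), and both intervals spanned 0. *Adgre1* encodes F4/80, the adhesion receptor used to stain mouse macrophages (chromosome 17, 57498109 to 57622952). It was at 4.58 FPKM in WT_1, 3.52 in WT_2, 4.26 in the library labelled TRKC+/- and 3.36 in AdNTF3-Tg. The AdNTF3-Tg library was lowest, close to WT_2, and its log2 fold change of −0.26 had an interval from −0.64 to 0.08.

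*Aif1* encodes IBA1, a calcium-binding protein of the macrophage cytoskeleton (chromosome 17, 35307936 to 35313013). It was at 5.73 FPKM (41 reads) in WT_1, 5.32 (38 reads) in WT_2, 3.86 (28 reads) in the library labelled TRKC+/- and 4.51 (32 reads) in AdNTF3-Tg. Both mutants lay below both WT libraries. The log2 fold change of −0.51 in the library labelled TRKC+/- was past the cutoff, but its interval ran from −1.20 to 0.12, and with so few reads a difference of this size was not detectable at this depth. For AdNTF3-Tg the value was −0.29 (−0.95 to 0.30).

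*Mrc1*, the mannose receptor of tissue-resident macrophages (chromosome 2, 14151041 to 14253684), was at 6.92 FPKM in WT_1, 5.67 in WT_2, 6.20 in the library labelled TRKC+/- and 5.72 in AdNTF3-Tg. Both mutant values fell within the WT range, at −0.02 (−0.23 to 0.19) and −0.14 (−0.36 to 0.07) on the log2 scale. *Cx3cr1*, the receptor of the neuronal chemokine fractalkine (chromosome 9, 119957811 to 119977400), had its highest level in WT_2, at 4.01 FPKM (131 reads). It was at 3.08 FPKM (99 reads) in WT_1, 2.86 (94 reads) in the library labelled TRKC+/- and 2.80 (91 reads) in AdNTF3-Tg. It was the 1 gene of the set that was lower in WT_1 than in WT_2. Against the WT mean it was at −0.30 (−0.68 to 0.04) in the library labelled TRKC+/- and at −0.33 (−0.71 to 0.01) in AdNTF3-Tg, and it passed the cutoff only in AdNTF3-Tg against WT_2, at −0.50.

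*Msr1*, the class A scavenger receptor that takes up modified lipoproteins, showed the widest spread of the set. It lies on chromosome 8 from 40667054 to 40728032. Its level was 2.97 FPKM in WT_1, 1.28 in WT_2, 0.91 in the library labelled TRKC+/- and 2.57 in AdNTF3-Tg, so the WT libraries were 1.15 apart on the log2 scale. The reads differed less, at 54, 35, 29 and 54. The deposited transcript length of *Msr1*, a gene with 2 listed transcripts, was 2147 bases in WT_1, 3148 in WT_2, 3643 in the library labelled TRKC+/- and 2450 in AdNTF3-Tg, and the length ran opposite to the reads. The other 9 genes had 1 length each in every library. Among the 15275 genes, the length differed between libraries in 20.4%, and by a factor of at least 1.5 in 0.137%. For the library labelled TRKC+/- against the WT mean the log2 fold change was −1.14 by FPKM and −0.64 by reads (−1.30 to −0.02). It was −1.60 by FPKM against WT_1 and −0.45 against WT_2. In AdNTF3-Tg the log2 fold change of FPKM was −0.20 against WT_1 and 0.95 against WT_2, so its sign depended on the WT library.

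**Figure D2:**
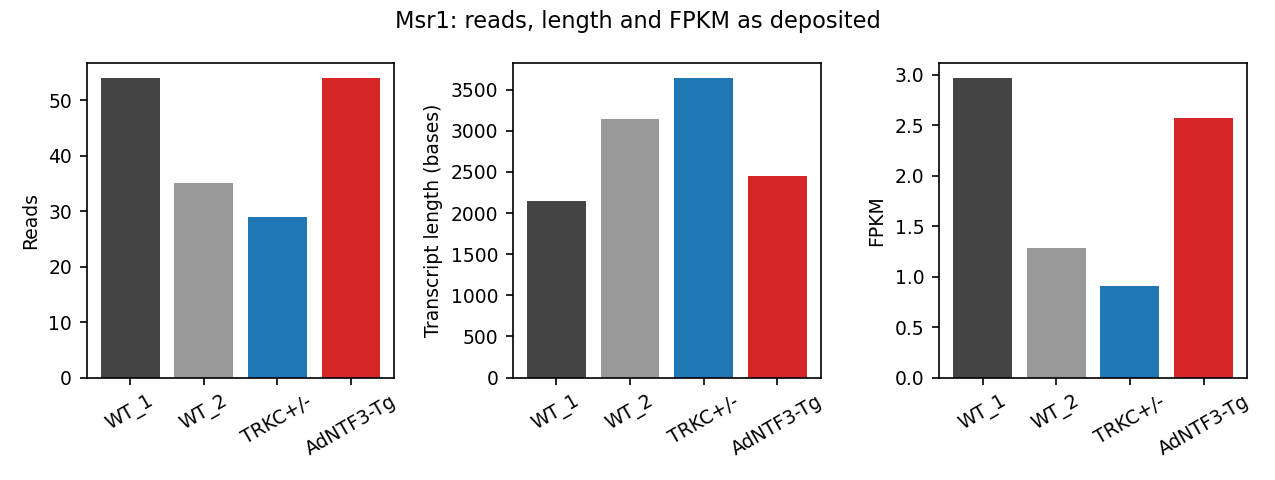
Reads, deposited transcript length in bases and FPKM of *Msr1*, with 1 bar per library from 0. The library labelled TRKC+/- has the fewest reads (29) and the longest deposited length (3643 bases), and its FPKM is the lowest (0.91).

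The C1q genes had between 261 and 469 reads in each library. *C1qa* was at 52.4 FPKM (469 reads) in WT_1, 42.1 (378 reads) in WT_2, 45.0 (409 reads) in the library labelled TRKC+/- and 34.1 (304 reads) in AdNTF3-Tg. *C1qb* was at 50.8, 41.7, 47.1 and 36.3 FPKM, and *C1qc* at 42.3, 36.4, 35.4 and 29.8 FPKM, in the same order. All 3 were lowest in AdNTF3-Tg. The library labelled TRKC+/- lay within the WT range for *C1qa* and *C1qb* and just below it for *C1qc*.

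In AdNTF3-Tg the log2 fold change against the WT mean was −0.47 for *C1qa* (−0.68 to −0.30), −0.35 for *C1qb* (−0.55 to −0.17) and −0.40 for *C1qc* (−0.63 to −0.21). These were the 3 of 10 genes of the set whose counting interval excluded 0 in this comparison, beside 24.8% of all genes. Against WT_2, the lower WT library for these genes, the values were −0.31, −0.20 and −0.29, and the interval of *C1qb* then reached 0.02. Against WT_1 *C1qa* and *C1qc* were at −0.62 and −0.50, past the cutoff, and *C1qb* at −0.48. The WT libraries were 0.31, 0.28 and 0.22 apart. The AdNTF3-Tg library was thus about as far below WT_2 as WT_2 was below WT_1. In the library labelled TRKC+/- the values were −0.07, 0.03 and −0.15, and their intervals all spanned 0.

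**Figure D3:**
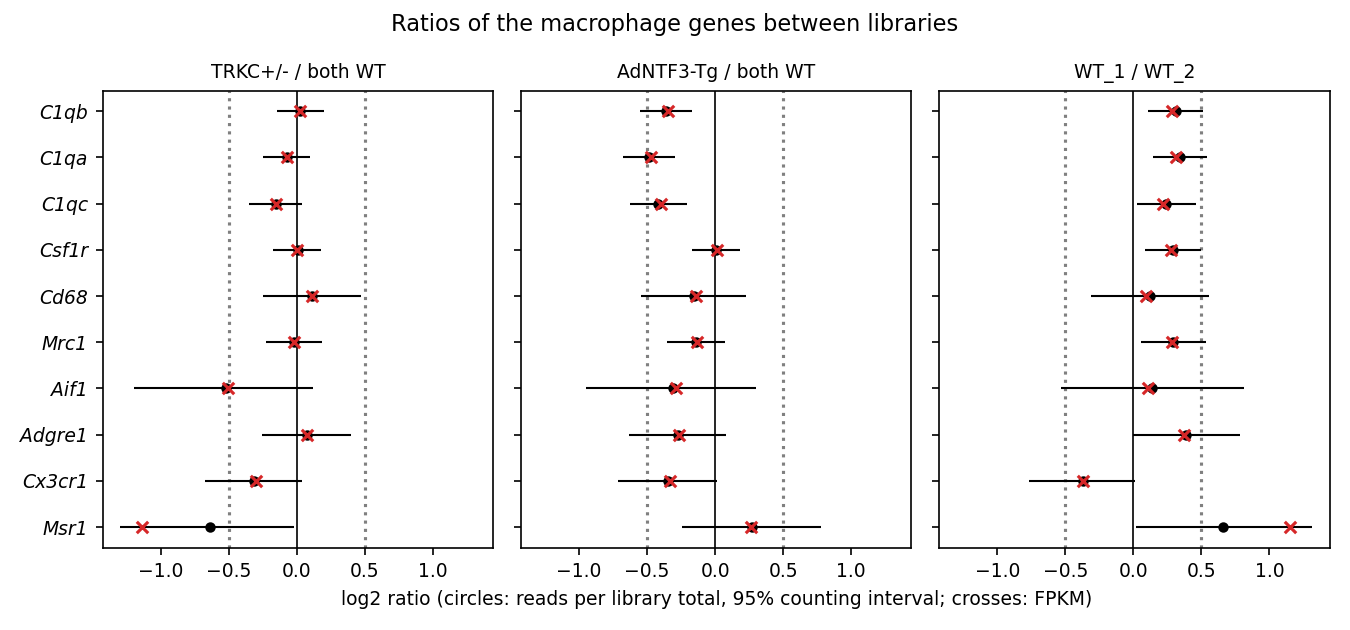
Log2 ratios of the 10 genes for the library labelled TRKC+/- and for AdNTF3-Tg against both WT libraries and for WT_1 against WT_2, with circles for reads per library total, bars for 95% counting intervals, crosses for FPKM and dotted lines at the cutoff of 0.5. The C1q genes lie between −0.47 and −0.35 by FPKM in AdNTF3-Tg, and 9 of 10 genes are above 0 in the ratio of the WT libraries.

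The balance within the set was then compared, a measure chosen after the values were seen. *C1qa*, *C1qb* and *C1qc* together took 52.5% of the reads on the 10 genes in WT_1 (50.5 to 54.5), 51.2% in WT_2 (49.03 to 53.4), 51.8% in the library labelled TRKC+/- (49.7 to 53.9) and 46.4% in AdNTF3-Tg (44.2 to 48.7), with Clopper-Pearson intervals. The intervals of the first 3 libraries overlapped although their summed levels differed, and the AdNTF3-Tg interval lay below the others. Set against *Csf1r* alone, the C1q share of the joint reads was 74.9%, 74.8%, 74.0% and 68.8% in the same order. By reads, the sum of the other 7 genes in AdNTF3-Tg was level with WT_2, at a log2 ratio of 0.01 (−0.12 to 0.14), but below WT_1 at −0.22 (−0.34 to −0.09) and at −0.11 (−0.21 to 0.00) against the WT mean. The C1q sum was at −0.26 (−0.40 to −0.13) against WT_2, −0.57 (−0.69 to −0.44) against WT_1 and −0.42 (−0.54 to −0.31) against the WT mean. A spread between AdNTF3-Tg pools was not measured. The WT pair differed by less than its counting error in the C1q share but by more in the sums, at 0.30 (0.18 to 0.42) for C1q and 0.23 (0.10 to 0.35) for the other 7 genes.

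**Figure D4:**
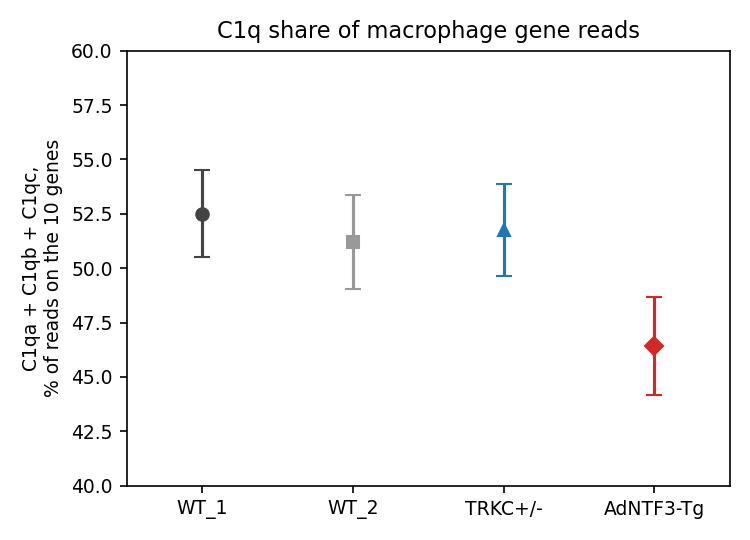
Reads on *C1qa*, *C1qb* and *C1qc* as a percent of the reads on all 10 macrophage genes, 1 point per library with its 95% Clopper-Pearson interval, on an axis from 40 to 60%. The AdNTF3-Tg library is at 46.4% and the other libraries between 51.2% and 52.5%.

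Across the set, 2 of 10 genes (*Aif1* and *Msr1*) were past the cutoff on the lower side in the library labelled TRKC+/- against the WT mean, where 5.09% of all 15275 genes were, and 0 on the higher side, where 3.48% of all genes were. Against each WT library in the same direction the count was 0 on both sides, beside 2.49% of all genes lower and 1.78% higher. Both genes passed against WT_1 alone, where 10.7% of all genes did in either direction, and 0 of the set against WT_2 alone, where 12.7% did. In AdNTF3-Tg the count was 0 against the WT mean and against each WT library in the same direction, beside 6.95% lower and 4.01% higher against the WT mean, and 3.58% lower and 2.12% higher against each WT library. Against 1 WT library alone it was 2, with *C1qa* and *C1qc* lower than in WT_1, and *Cx3cr1* lower and *Msr1* higher than in WT_2, where 13.9% and 13.3% of all genes passed in either direction. Between the WT libraries 1 of 10, *Msr1*, differed by the cutoff in either direction, beside 13.4% of all genes. The median log2 fold change of the set was −0.05 in the library labelled TRKC+/- with 6 genes below 0, and −0.27 in AdNTF3-Tg with 8 below 0, where the medians of all genes were 0.00. Against WT_1 and WT_2 alone, the median was −0.14 and 0.11 in the library labelled TRKC+/-, and −0.30 and −0.15 in AdNTF3-Tg. Between WT_1 and WT_2 the median of the set was 0.28, so the pair of WT pools differed by as much as AdNTF3-Tg did from their mean.

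A count model gave no call in the set. edgeR's quasi-likelihood test, with the lone mutant library assumed to vary like the WT pair, tested 14156 genes and called 1 at an adjusted p under 0.05 in the library labelled TRKC+/- (0.00706% of genes), which was *Ucp1*, the uncoupling protein of brown fat, and 0 in AdNTF3-Tg (0%). At an unadjusted p under 0.05 the counts were 273 and 832 genes, and DESeq2 called 2 and 0. Of the 10 macrophage genes, 0 had an unadjusted p under 0.05 in the library labelled TRKC+/- and 2 in AdNTF3-Tg. These were *C1qa*, with an edgeR log2 fold change of −0.48 (SE 0.17), and *C1qc*, with −0.41 (SE 0.16). *C1qb* was at −0.36 (SE 0.16), and the edgeR adjusted p was 0.817 for each of the 3.

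Of 25 further macrophage genes, all listed in every library, 23 were below 0 in AdNTF3-Tg against the WT mean, with a median of −0.26, and 15 were below 0 in the library labelled TRKC+/-, with a median of −0.12. Of all genes, 50.5% and 49.9% were below 0. Against both WT libraries, 4 were lower by the cutoff in AdNTF3-Tg (*Cd14*, *Lyz2*, *Irf8* and *Folr2*) and 0 higher, beside 3.58% and 2.12% of all genes. In the library labelled TRKC+/- 2 were lower (*Cd14* and *Folr2*) and 1 was higher (*Trem2*), beside 2.49% and 1.78% of all genes. None was called by edgeR in either mutant. *Lyz2*, the lysozyme of myeloid cells, was at 125 FPKM in WT_1, 122 in WT_2, 87.5 in the library labelled TRKC+/- and 83.7 in AdNTF3-Tg. The WT libraries agreed closely and both mutant libraries were lower, by log2 fold changes of −0.50 and −0.56, though reads of the near copy *Lyz1* may be divided with it.

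*Irf8*, a transcription factor of myeloid cells, was at 2.24, 2.29 and 2.55 FPKM in WT_1, WT_2 and the library labelled TRKC+/-, and at 1.07 FPKM (26 reads) in AdNTF3-Tg. Its log2 fold change there was −1.02 (−1.77 to −0.46). *Cd14*, the co-receptor for lipopolysaccharide, was at 3.82 and 4.50 FPKM in WT_1 and WT_2, 1.80 in the library labelled TRKC+/- and 2.62 in AdNTF3-Tg. *Folr2*, a folate receptor of resident macrophages, was at 3.96, 4.83, 2.60 and 2.10 FPKM in that order. *Trem2*, a lipid-sensing receptor, was at 4.10 FPKM (38 reads) in the library labelled TRKC+/- and between 2.43 and 2.55 FPKM in the others. The 2 mutants share both WT libraries in these comparisons, so their values are not independent. The most abundant gene of the list, *Lgmn*, a lysosomal protease, was between 148 and 166 FPKM with log2 fold changes of −0.03 and −0.15. *Fcgr2b*, also among the 3 most abundant, was at 38.4 FPKM in WT_1, 54.9 in WT_2, 32.3 in the library labelled TRKC+/- and 39.0 in AdNTF3-Tg. Its log2 fold changes against the WT mean were −0.53 and −0.26, and the WT libraries were 0.52 apart.

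**Figure D5:**
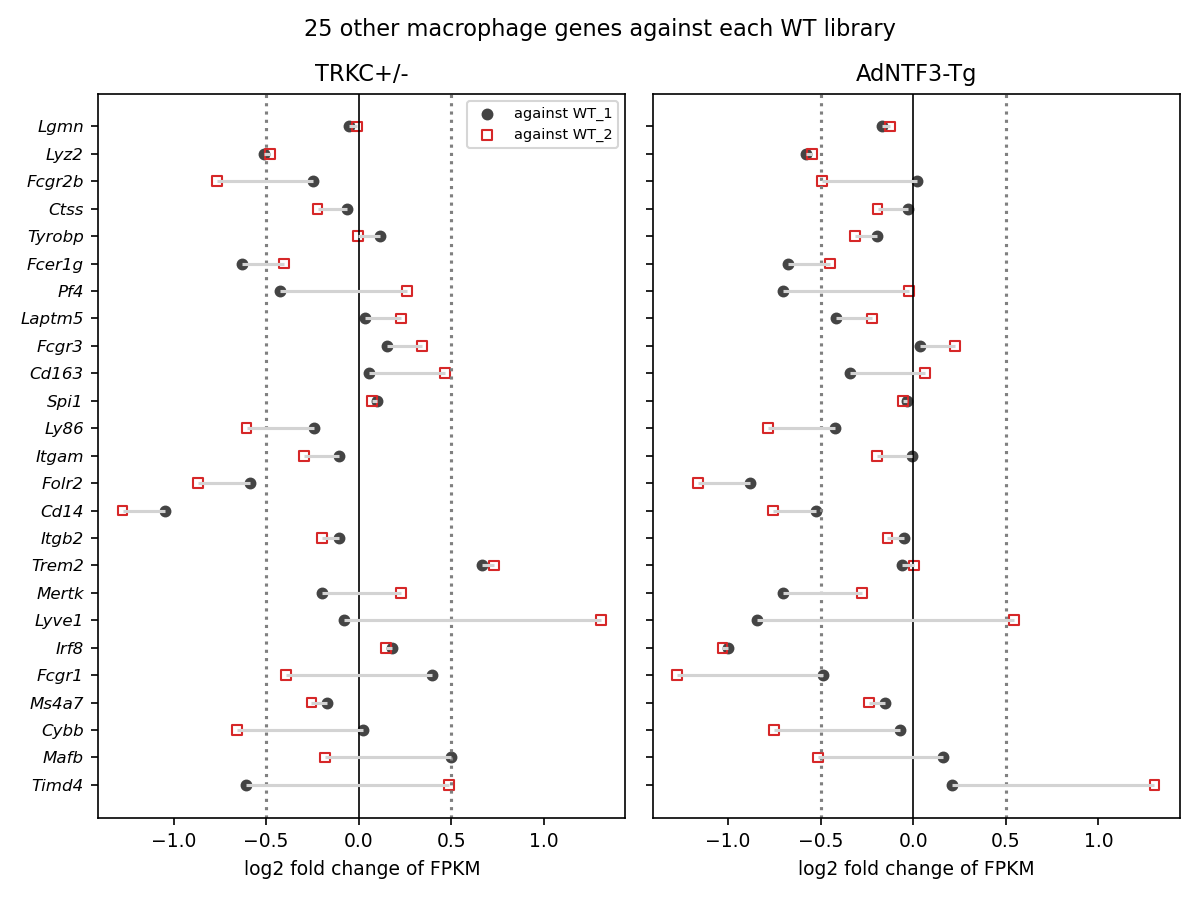
Log2 fold changes of FPKM of 25 other macrophage genes, ordered by mean FPKM with the highest at the top, for the library labelled TRKC+/- and for AdNTF3-Tg, with filled circles against WT_1, open squares against WT_2 and dotted lines at the cutoff of 0.5. In AdNTF3-Tg *Irf8*, *Folr2*, *Cd14* and *Lyz2* lie below −0.5 against both WT libraries.

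Among 15 other complement genes, *C2*, the protease cleaved by the complex that C1q starts, was lower by the cutoff against both WT libraries in AdNTF3-Tg, and no other was past it in either mutant. Over all genes, 3.58% were lower and 2.12% higher against both WT libraries in AdNTF3-Tg, and 2.49% and 1.78% in the library labelled TRKC+/-. These shares also stand beside the counts of the other lists in this paragraph. *C2* was at 5.37 FPKM in WT_1, 3.77 in WT_2, 4.99 in the library labelled TRKC+/- and 2.42 in AdNTF3-Tg, a log2 fold change of −0.89 (−1.38 to −0.48). The inhibitor of C1, *Serping1*, was between 94.6 and 112 FPKM, with a log2 fold change of −0.12 in AdNTF3-Tg. *Cfd*, the complement protease factor D, was at 104 FPKM in WT_1, 64.8 in WT_2, 90.2 in the library labelled TRKC+/- and 62.0 in AdNTF3-Tg. Its log2 fold change in AdNTF3-Tg was −0.44 against the WT mean, −0.74 against WT_1 and −0.06 against WT_2. The adipocyte sum without *Ucp1*, given above, was likewise highest in WT_1 and lowest in AdNTF3-Tg. The part of fat in the *Cfd* values was not tested. Of 12 lysosomal genes, which many cell types share, 0 were past the cutoff in either mutant, and the most abundant, *Psap*, was at 0.03 and −0.02. Of 14 other scavenger receptors 12 were listed in every library, and 0 of these passed against both WT libraries. Of 16 genes of macrophage activation only 9 were listed in every library, and *Il1a*, *Il6*, *Tnf*, *Nos2*, *Ccl3*, *Ccl4* and *Il10* were not. *Chil3*, a chitinase-like protein of alternatively activated macrophages, was at 3.57 FPKM in WT_1, 6.03 in WT_2, 2.38 in the library labelled TRKC+/- and 2.50 in AdNTF3-Tg. It was lower by the cutoff against both WT libraries in the library labelled TRKC+/-, as was *Il1b* at no more than 1.61 FPKM in any library. In AdNTF3-Tg 0 activation genes were so, though *Chil3* was at −0.497 against WT_1 and −1.24 against WT_2. Of the 9 genes, 8 were below 0 in AdNTF3-Tg with a median of −0.48, and 5 in the library labelled TRKC+/- with a median of −0.04. Against the WT mean 4 were lower and 1 higher by the cutoff in AdNTF3-Tg, beside 6.95% and 4.01% of all genes. *Arg1*, the most abundant of the list, was between 16.6 and 19.1 FPKM, at −0.08 in the library labelled TRKC+/- and −0.02 in AdNTF3-Tg. Microglial genes of the list were present as well, with *Olfml3* between 12.7 and 21.1 FPKM and *Fcrls* between 4.81 and 8.48 FPKM, but *Sall1*, a defining factor of microglia, had between 2 and 4 reads. Of 9 microglial genes, *P2ry13* was lower by the cutoff against both WT libraries in the library labelled TRKC+/- and *Gpr34* higher in AdNTF3-Tg, both at no more than 1.24 FPKM.

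Other blood cells could contribute to shared genes, so their markers were summed. A list of 7 pan-leukocyte genes summed to 105 FPKM in WT_1, 113 in WT_2, 103 in the library labelled TRKC+/- and 89.8 in AdNTF3-Tg. More than any other gene, *Coro1a*, an actin-binding protein, made up this sum, at 68.0, 68.9, 73.7 and 60.8 FPKM. Of the 7 genes, 6 were below 0 in the library labelled TRKC+/- with a median log2 fold change of −0.45, and 7 in AdNTF3-Tg with a median of −0.37. The shares of all genes below 0 were 49.9% and 50.5%. Within the list *Cd52*, a surface glycoprotein of leukocytes, was at 13.2, 15.1, 9.07 and 7.62 FPKM, below both WT libraries by the cutoff in both mutants. A list of 6 monocyte genes summed to 24.6, 33.5, 26.3 and 23.9 FPKM, and a list of 6 dendritic cell genes to 9.73, 9.27, 8.46 and 6.62 FPKM, lowest in AdNTF3-Tg. Of these 6 genes, 6 were below 0 in AdNTF3-Tg with a median of −0.79, and 3 (*Xcr1*, *Clec9a* and *Cd209a*) were lower by the cutoff against both WT libraries, each with at most 31 reads in any library. In that mutant 50.5% of all genes were below 0, and 3.58% were lower by the cutoff against both WT libraries. A list of 6 red blood cell genes summed to 113 FPKM in WT_1, 47.0 in WT_2, 102 in the library labelled TRKC+/- and 64.2 in AdNTF3-Tg. The WT libraries were 1.26 apart in this sum on the log2 scale. Lists for neutrophils, T and NK cells and B cells each stayed at or below 2.63 FPKM in every library. Of 8 neutrophil genes 1, *Csf3r*, was listed in every library. The adipocyte and muscle sums given above also differed between libraries. The part of these cells in the macrophage values was not tested.

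The genes outside the set whose pattern over the 4 libraries was nearest to the mean pattern of the set, by Euclidean distance of centered log2 FPKM among 9843 genes that averaged 100 reads or more, were *Myl6* (0.021), *Stat5b* (0.022), *Cox7a2* (0.033), *9530077C05Rik* (0.039) and *Il11ra1* (0.040). *Myl6*, a myosin light chain, was at 613 FPKM in WT_1, 506 in WT_2, 497 in the library labelled TRKC+/- and 484 in AdNTF3-Tg. In all, 84 genes lay within a distance of 0.1 over the 4 libraries.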

How the data were processed

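RNA-seq tables of 4 pooled libraries of sympathetic ganglia were used. The authors sequenced oligo(dT)-selected RNA as single-end reads of 50 bases, removed poor reads with SOAPnuke (v1.5.2) and, per their methods, aligned the rest to mm9 using HISAT2 (v2.0.4). The submitters' processing notes instead name RSEM and mm10, so the build behind the counts is uncertain, and whether the counting used strand is not given in the sources used here. For each gene the authors deposited an expected count, which is an unnormalized estimate and need not be whole, and an FPKM value, which scales it by effective length and library total. Between 92.6% and 93.7% of expected counts were whole.

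Genes were named from the Entrez identifiers, of which 17619 (99.7%) had a symbol. Folds were log2((mutant FPKM + 0.1)/(WT FPKM + 0.1)) over genes listed in all libraries, with the cutoff of 0.5 that the study's methods give. Clopper-Pearson intervals (scipy 1.17.1) used rounded expected counts and cover counting error only. Rounded counts were also tested with edgeR 4.0.16 (TMM, filterByExpr, quasi-likelihood, Benjamini-Hochberg adjustment over all genes tested) and DESeq2 1.42.0 as an alternative in R 4.3.3, both with 1 residual degree of freedom, which comes from the WT pair. The edgeR step was first tested on simulated data. Coordinates come from a GENCODE annotation of NCBIM37 and promoter windows from RefSeq (GRCm38.p6), placed in NCBIM37 by exact match.

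The macrophage genes and the gene lists were chosen with earlier results of these data known. The naming rule took all 10 of the set, the 3 with the highest mean FPKM in each list and the 5 nearest in pattern. It also took *Ntrk3*, *Ntf3* and list genes with a mean of at least 30 reads past the cutoff against both WT libraries (at most 5 for each list and mutant). Not every list gene that met this rule is printed. Genes of lists that touch no macrophage result are given as list sums or left out, and 1 microglial list gene is not reported here. Genes named outside this rule, chosen after their values were seen, are *Trem2*, *Sall1*, *Il1b*, *P2ry13*, *Gpr34*, *Xcr1*, *Clec9a* and the unlisted cytokine genes. Alternatives changed the pseudocount, low-value filter, scaling, cutoff, treatment of genes not listed, and the WT library used.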

Additional observations from a re-analysis of the deposited data

How the results depend on the processing

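No paired analysis was possible because each mutant has 1 library and the labels do not tie it to its WT control. Leaving out a WT library also leaves edgeR without residual degrees of freedom, so no such fit was made. Of all genes, 1308 were past the cutoff in the library labelled TRKC+/- and 1674 in AdNTF3-Tg. These counts became 269 and 404 with a pseudocount of 1, 427 and 691 among genes of at least 1 FPKM, 2602 and 2996 with unlisted genes taken as 0, 292 and 367 at a cutoff of 1, and 403 and 684 where the counting interval also had to exclude 0. With 1 WT library left out they ranged from 1632 to 1933 and from 2033 to 2116. Between the WT libraries the count was 2044, and 633, 926, 3381 and 538 under the first 4 of these. The share of the calls that were lower in the library labelled TRKC+/- went from 59.4% to 46.8% without WT_1, and in AdNTF3-Tg from 63.4% to 53.4% without WT_1 and to 72.8% with a pseudocount of 1.

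Of the macrophage genes, the count past the cutoff in the library labelled TRKC+/- was 2, and 1 (*Msr1*) with a pseudocount of 1, with TMM-scaled log2 CPM, a setting that uses reads and also averages the WT libraries on the log scale, at a cutoff of 1 or with the interval condition. It ranged from 0 without WT_1 to 2 without WT_2. In AdNTF3-Tg it was 0, and 2 without either WT library: *Cx3cr1* and *Msr1* without WT_1, *C1qa* and *C1qc* without WT_2. The summed level kept its sign in AdNTF3-Tg (−0.33, and from −0.45 to −0.19 with 1 WT library left out), but not in the library labelled TRKC+/- (−0.07, from −0.19 to 0.07). The C1q share of AdNTF3-Tg minus the pooled WT share was −5.48 percentage points, −4.78 without WT_1, −6.08 without WT_2 and −6.02 with only *Csf1r* beside the C1q genes, alternatives chosen after seeing the data. edgeR called 1 gene in the library labelled TRKC+/-, and 2 with RLE scaling or with DESeq2 and 0 without a low-count filter. *Hba-a1*, *Acta1*, *Tnnt3* and *Tnnc2* changed sign in both mutants with the WT library used. In AdNTF3-Tg, with 1 WT library left out, *Hba-a1* ranged from −1.14 to 0.50, *Acta1* from −1.43 to 2.69, *Tnnt3* from −1.49 to 3.78 and *Tnnc2* from −1.70 to 3.28, and with TMM-scaled log2 CPM, averaged on the log scale, the last 3 genes were at 0.61, 0.97 and 0.52. In the library labelled TRKC+/- the 4 genes, in the same order, ranged from −0.42 to 1.22, −1.04 to 3.08, −0.80 to 4.48 and −0.87 to 4.11. The cause was not tested. Genes with few reads, such as *Aif1* and *Msr1*, are limited by depth.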
